A study of Mus musculus with 6 samples.

Results

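The transcription factors that drive epithelial-mesenchymal transition, and a pair of proteins widely used as its markers, were examined in a mouse liposarcoma line with and without the Notch intracellular domain. The members are 9 genes chosen by symbol: the zinc-finger factor genes Snai1, Snai2, Zeb1 and Zeb2, the helix-loop-helix factor genes Twist1 and Twist2, the homeobox gene Prrx1, and the marker genes Vim and Fn1. All 9 stand on 1 row each among the 14472 rows of the authors' deposited table, all were tested, and none was lost to low counts. The series holds 6 RNA-seq libraries of mLPS1 cells, described by the labels as dedifferentiated liposarcoma cells, a tumour of the fat lineage that has lost its fat cell character: 3 libraries carry the genotype NICD Knockout (p34, p36 and p39 in their titles) and 3 the genotype WT (p35, p37 and p40). The labels name 1 line per genotype, do not say what the p numbers stand for and give no treatment. Nothing tells whether the libraries of a genotype are separate cultures, and the p-values therefore rest on a spread between libraries that may be technical. The title of the series names Notch over-expression while the genotype label says knockout, and the sources used here do not say whether the WT line was given a Notch construct.

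Epithelial-mesenchymal transition is the change in which epithelial cells give up their junctions and polarity and become motile, matrix-producing mesenchymal cells. Snail, Slug (the product of Snai2) and the Zeb proteins bind E-box sequences in promoters of epithelial genes such as the E-cadherin gene Cdh1 and repress them with corepressors, whereas Twist proteins pair with E proteins and Prrx1 acts through its homeodomain. Cells of mesenchymal origin, sarcomas included, express these factors without having passed through such a transition. Notch signalling is known to switch on Snai1 and Snai2 in several cell types, Snai2 as a direct target in endothelial cells.

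For each gene the authors' deposited table lists a normalised count averaged over libraries, the log2 fold change of knockout over WT, its standard error (SE) and an adjusted p-value. It has no columns for single libraries, so their depth is unknown, and each group's level is a fitted one that combines the listed mean with the fold change. Notch1, the receptor gene that encodes an intracellular domain of this name, had a log2 fold change of -1.78 (SE 0.13, DESeq2 adjusted p = 1.08e-38) per the authors' deposited table, which does not separate an introduced fragment from the endogenous gene. Over all 14470 genes tested, 50.5% passed an adjusted p of 0.05 per the authors' deposited table: 25.4% were higher in the knockout and 25.1% lower. Among the 10479 whose mean reached 100, 30.2% were lower. The median log2 fold change was 0.02 over all genes tested and -0.05 over those with a mean of at least 100.

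The promoters of 6 members are held by the RefSeq sequence table (GRCm38.p6), in 9 windows that run from 250 bases before a start site to 50 after it. Those shown are a window of each of the Snail, Zeb and Twist families and of the marker gene Vim, so that the elements named below can be read in place. Capitals mark the Rbpj core TGGGAA (the letters bound by the DNA-binding partner of the Notch intracellular domain), the E-box CACCTG preferred by Snail and Zeb proteins, and the TATA box TATAAA, each searched on both strands.
Snai1, chr2:167537945-167538244, plus strand: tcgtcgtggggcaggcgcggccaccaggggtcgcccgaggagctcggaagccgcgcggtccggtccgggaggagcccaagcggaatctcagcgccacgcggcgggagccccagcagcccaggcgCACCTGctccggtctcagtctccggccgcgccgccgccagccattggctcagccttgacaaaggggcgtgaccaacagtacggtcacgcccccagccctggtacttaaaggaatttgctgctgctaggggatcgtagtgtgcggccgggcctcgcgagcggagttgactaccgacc
Zeb2, chr2:45113204-45113503, minus strand: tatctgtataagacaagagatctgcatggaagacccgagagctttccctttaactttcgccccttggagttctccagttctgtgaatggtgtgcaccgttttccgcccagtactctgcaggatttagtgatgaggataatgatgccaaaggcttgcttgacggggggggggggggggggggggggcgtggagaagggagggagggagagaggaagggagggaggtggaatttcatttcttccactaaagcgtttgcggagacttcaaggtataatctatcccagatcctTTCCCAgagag
Twist1, chr12:33957421-33957720, plus strand: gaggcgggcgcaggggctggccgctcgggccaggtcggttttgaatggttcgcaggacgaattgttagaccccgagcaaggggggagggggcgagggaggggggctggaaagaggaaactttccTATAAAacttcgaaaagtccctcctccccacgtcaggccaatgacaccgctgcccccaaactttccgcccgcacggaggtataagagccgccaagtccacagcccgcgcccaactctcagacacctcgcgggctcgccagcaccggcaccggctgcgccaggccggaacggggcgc
Twist2, chr1:91801211-91801510, plus strand: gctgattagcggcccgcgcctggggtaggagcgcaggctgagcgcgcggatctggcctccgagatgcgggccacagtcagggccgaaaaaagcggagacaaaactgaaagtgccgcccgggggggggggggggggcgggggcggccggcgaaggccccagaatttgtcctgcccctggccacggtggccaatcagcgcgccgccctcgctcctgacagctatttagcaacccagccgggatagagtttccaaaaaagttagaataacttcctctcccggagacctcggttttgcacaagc
Vim, chr2:13574061-13574360, plus strand: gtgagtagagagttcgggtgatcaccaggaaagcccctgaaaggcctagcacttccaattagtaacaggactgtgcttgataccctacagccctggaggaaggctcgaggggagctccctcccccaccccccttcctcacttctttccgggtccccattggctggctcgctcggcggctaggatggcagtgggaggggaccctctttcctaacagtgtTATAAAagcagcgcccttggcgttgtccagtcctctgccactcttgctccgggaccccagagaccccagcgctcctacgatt

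The Rbpj core was found in 1 of the 9 windows, that of Zeb2 shown above, 39 bases after the start site, and is held by 25.6% of all 32851 promoter windows of the same length. The E-box CACCTG was found only in the Snai1 window among the 9, 126 bases before the start site, against 20.2% of all windows. No CANNTG of any kind, which includes CACCTG, was found in the other 8 windows, while 72.3% of all windows hold one. A TATA box stood 32 bases before the start site of Vim and 126 bases before that of Twist1, against 13.6% of all windows. The GC box GGGCGG was found in 5 of the 9 windows, 4 times in that of Twist2 and once each in that of Twist1 and in 3 of Zeb2, and 35.7% of all windows hold it. The Zeb2 window shown overlaps another of these 3, and the GC box of both is the same site. These matches describe the letters of the windows only.

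All 9 members were lower in the knockout per the authors' deposited table, against a background of 25.1% of all genes tested and 30.2% of those with a mean of at least 100. Their log2 fold changes ran from -2.74 for Snai2 to -0.56 for Vim per the authors' deposited table, and their median was -0.66. The falls were steep for Snai2, Zeb2 and Fn1 and modest for the others, with falls between 1.47-fold and 1.97-fold. A stricter question, whether the change itself exceeds 2-fold, was met by Snai2 and Zeb2 alone (adjusted p = 1e-06 and 4.34e-04), against 4.67% of all genes tested that were lower by this rule. Under Bonferroni adjustment over all genes, Snai2, Zeb2, Fn1 and Twist1 passed and the other 5 did not.

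**Figure D1:**
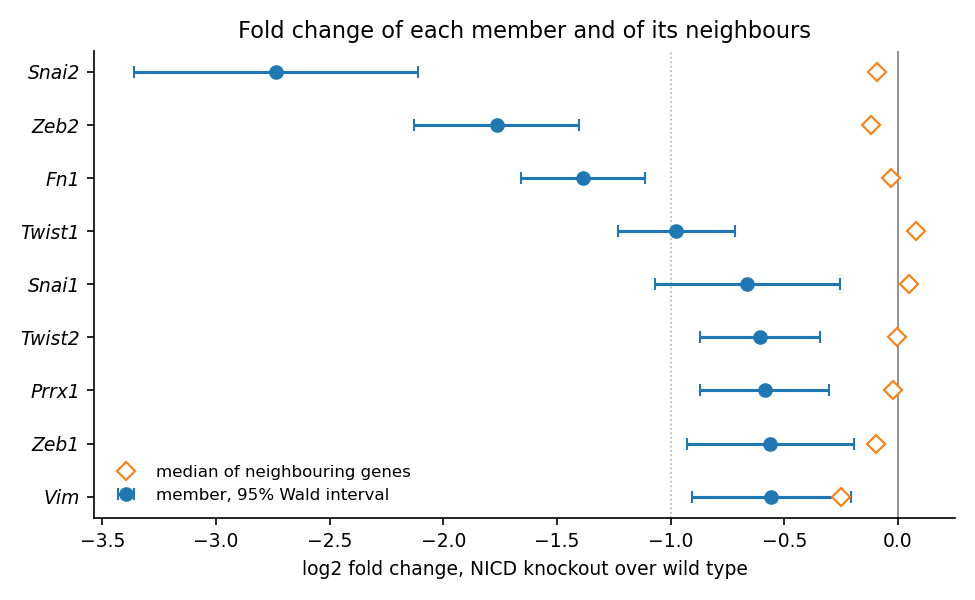
Log2 fold change of each member, knockout over WT, with its 95% Wald interval (filled circles and bars), beside the median log2 fold change of up to 10 expressed protein-coding genes on each side of it (open diamonds). The dotted line marks a fall of 2-fold. The interval of every member lies below 0, and the neighbour median lies inside the interval only for Vim.

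The Snail family genes separated widely. Snai2 (ENSMUSG00000022676, chromosome 16), which encodes Slug, had a fitted level of 264 normalised counts per library in the knockout, against 1762 in WT. It fell 6.66-fold (95% Wald interval 4.32 to 10.3), with a log2 fold change of -2.74 (SE 0.32, DESeq2 adjusted p = 1.58e-16) per the authors' deposited table. Among genes whose mean reached 100, 2.11% had a more negative fold change. The SE of Snai2 was larger than that of 98.9% of the 2853 genes within 1.5-fold of its mean (their median 0.14), so its size is known less well than that of most genes at this level. Snai1 (ENSMUSG00000042821, chromosome 2), which encodes Snail itself, had a fitted level of 834 in the knockout and 1321 in WT. Its log2 fold change per the authors' deposited table was -0.66 (SE 0.21, DESeq2 adjusted p = 0.00389), a fall of 1.58-fold (interval 1.19 to 2.10). Its SE too was larger than that of 90.9% of genes of like mean. The difference of the log2 fold changes, Snai2 minus Snai1, was -2.07 (interval -2.82 to -1.33, computed as if the estimates were independent, as are the other differences below). Snai3, the third gene of the family, was near the lower limit of the table, with a mean of 2.38, and did not pass (log2 fold change 2.50, SE 1.79, DESeq2 adjusted p = 0.244 per the authors' deposited table).

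The Zeb genes encode large repressors with zinc-finger clusters at both ends of the protein. Zeb2 (ENSMUSG00000026872, chromosome 2) had a fitted level of 885 in the knockout, against 3009 in WT. Its log2 fold change was -1.77 (SE 0.18, DESeq2 adjusted p = 1.90e-20) per the authors' deposited table, with an interval of the fold from 2.65 to 4.37. Only 3.80% of genes with a mean of at least 100 lay below it. Zeb1 (ENSMUSG00000024238, chromosome 18) had a fitted level of 1051 in the knockout and 1552 in WT. It fell 1.48-fold (interval 1.14 to 1.90) with a DESeq2 adjusted p of 0.00691 per the authors' deposited table, the largest adjusted p of the 9 members. Zeb2 fell further than Zeb1 (difference -1.20, interval -1.72 to -0.69). In the annotation of GENCODE M21, Zeb2 overlaps the antisense gene Zeb2os near its start and Zeb1 overlaps the opposite-strand transcript Gm10125. The sources used here do not state whether counting used strand, so reads from such partners cannot be told apart from those of the Zeb genes.

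Both Twist genes fell. Twist1 (ENSMUSG00000035799, chromosome 12) had a fitted level of 563 in the knockout and 1106 in WT. Its fall was 1.97-fold (interval 1.65 to 2.35), and its log2 fold change of -0.97 (SE 0.13, DESeq2 adjusted p = 9.25e-13) per the authors' deposited table had the smallest SE of the 9 members. Twist2 (ENSMUSG00000007805, chromosome 1) had a fitted level of 1074 in the knockout and 1637 in WT. It fell 1.52-fold (interval 1.27 to 1.83), with a DESeq2 adjusted p of 2.93e-05 per the authors' deposited table. The difference between the 2 genes, Twist1 minus Twist2, was -0.37 with an interval of -0.74 to 0.00, so a larger fall of Twist1 was not told apart from the error.

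Prrx1 (ENSMUSG00000026586, chromosome 1), a homeobox factor of limb and connective tissue mesenchyme, had a fitted level of 2024 in the knockout, against 3039 in WT. Its log2 fold change was -0.59 (SE 0.15, DESeq2 adjusted p = 1.98e-04) per the authors' deposited table, a drop whose fold had an interval of 1.23 to 1.83. Its paralog Prrx2, singled out after its value was seen, went the other way, with a fitted level of 261 in the knockout and 33.0 in WT and a log2 fold change of 2.99 (SE 0.34, DESeq2 adjusted p = 4.05e-17) per the authors' deposited table. Antisense genes overlap Prrx1 (Gm20471), Twist2 (Gm29100) and Fn1 (Apol7d) in the same annotation, with the same limit on strand as for the Zeb genes.

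Of the marker genes, Fn1 (ENSMUSG00000026193, chromosome 1) encodes fibronectin, the matrix glycoprotein to which mesenchymal cells attach through integrins. Its fitted level was 51273 in the knockout and 134012 in WT. The fall was 2.61-fold (interval 2.16 to 3.16), with a log2 fold change of -1.39 (SE 0.14, DESeq2 adjusted p = 5.31e-22) per the authors' deposited table, the smallest adjusted p of the 9 members. It just missed the threshold for a change over 2-fold (adjusted p = 0.0505). Vim (ENSMUSG00000026728, chromosome 2) encodes vimentin, the intermediate filament protein of mesenchymal cells, and had a fitted level of 66646 in the knockout, against 98030.2 in WT. Vim fell 1.47-fold (interval 1.16 to 1.87), with a log2 fold change of -0.56 (SE 0.18, DESeq2 adjusted p = 0.00469) per the authors' deposited table. Fn1 took 0.440% of the summed mean normalised counts of the authors' deposited table and Vim 0.391%, so both were heavily counted genes of these cells. Fn1 fell further than Vim (difference -0.83, interval -1.27 to -0.39).

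**Figure D2:**
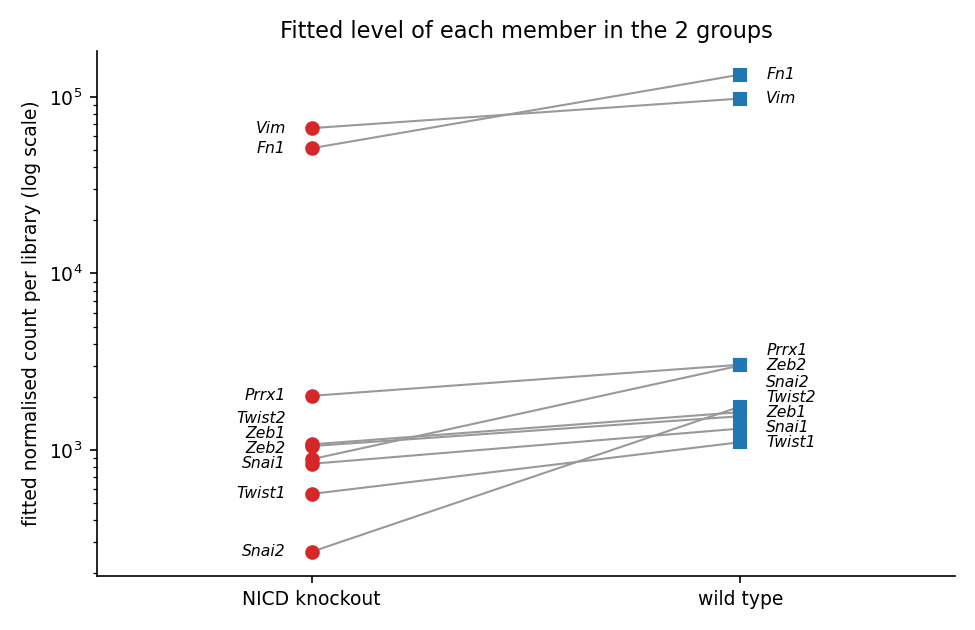
Fitted normalised counts per library (log scale) of the 9 members in the knockout (circles, left) and in WT (squares, right), joined by gene. Counts are not divided by gene length, so only the 2 ends of a line compare with each other; every line is lower at the knockout end, most steeply for Snai2 (264 against 1762). The levels are derived from 1 fitted value per group and carry no error bar of their own.

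Ordered by fold change, the members ran Snai2, Zeb2, Fn1, Twist1, Snai1, Twist2, Prrx1, Zeb1 and Vim. Of the 8 steps between neighbours in this order, 2 had an interval that left out 0: Snai2 to Zeb2 (-0.97, interval -1.69 to -0.25) and Fn1 to Twist1 (-0.41, interval -0.79 to -0.04). Zeb2 and Fn1 were not told apart (difference -0.38, interval -0.83 to 0.07), nor were Twist1 and Snai1 (-0.31, interval -0.79 to 0.17). From Snai1 to Vim the 5 genes had log2 fold changes between -0.66 and -0.56, and each step between them was smaller than its error. In the Snail and the Zeb family alike, 1 gene fell steeply and 1 modestly.

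**Figure D3:**
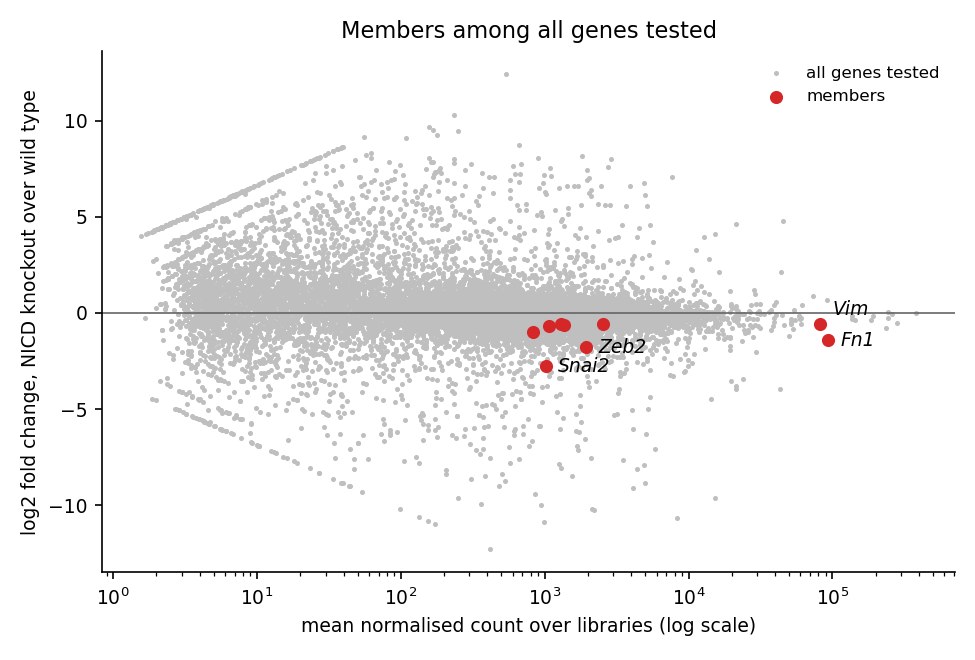
Log2 fold change against the mean normalised count (log scale) for all 14470 genes tested per the authors' deposited table (grey) and the 9 members (red). The members lie below 0 at means of 834 and above, inside the range of other genes of like mean.

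Neighbouring genes can shift together, so each member was set beside the median of up to 10 expressed protein-coding genes on each side. For 8 of the 9 members the neighbour median lay between -0.12 (Zeb2) and 0.08 (Twist1), and each of the 8 passed after it was subtracted. The adjusted p after subtraction used the SE of the member alone and took the neighbour median as free of error, although neighbours spread widely. The neighbours of Vim on chromosome 2 had a median of -0.25, with 8 of 20 lower and 2 higher per the authors' deposited table. Vim less its neighbours was -0.30 and did not pass (adjusted p = 0.143). The neighbours of Snai2 on chromosome 16 had a median of -0.09, with 9 of 20 lower and 1 higher, and Snai2 less its neighbours was -2.64 (adjusted p = 1.49e-15).

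The other genes of the programme were counted in lists written by name with earlier results of these data known. Of 26 further transcription factors linked to the transition, 22 were tested, of which 9 were lower and 6 higher in the knockout per the authors' deposited table (median 0.06 on the log2 scale, and -0.18 over the 20 whose mean reached 100). The background over all genes tested was 25.1% lower and 25.4% higher, and the share of higher factors was near it. Those with the smallest adjusted p were Runx1, a factor of blood and mesenchymal development, Ets1, Foxq1 and Tbx3. Runx1 fell with a log2 fold change of -2.13 (SE 0.14) per the authors' deposited table, and the genes beside it on chromosome 16 had a median of -1.06. Ets1 and Tbx3 fell with log2 fold changes of -1.23 (SE 0.10) and -1.66 (SE 0.17), and Foxq1 rose by 4.18 (SE 0.34) per the authors' deposited table.

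Corepressors were counted together with partners and inhibitors of helix-loop-helix factors. Of 22 listed, 19 were tested, of which 11 were lower and 2 higher per the authors' deposited table (median -0.40), against 25.1% and 25.4% of all genes tested. The 2 higher genes, Id1 and Id2, encode inhibitors, and the inhibitor gene Id4 is among the lower ones (log2 fold change -4.14, at a mean of 20.2) per the authors' deposited table. Id1 and Id4 were named after their values were seen. Rcor1, which encodes a partner of the histone demethylase Kdm1a, fell with a log2 fold change of -2.03 (SE 0.22) per the authors' deposited table, on chromosome 12, where its neighbours were lower too. Ezh2, the histone methyltransferase of Polycomb, fell too (log2 fold change -0.97, SE 0.12, neighbours -0.80), as did the corepressor gene Ctbp1 (-0.63, SE 0.10, neighbours 0.09) per the authors' deposited table. Id2, whose product ties up the E proteins that Twist factors pair with, rose by 1.91 (SE 0.31) per the authors' deposited table, and its neighbours had a median of -0.81. Among the E protein genes themselves, singled out after their values were seen, Tcf4 rose by 0.87 (SE 0.19, neighbours 0.63), while Tcf3 (-0.11) and Tcf12 (-0.25) did not pass per the authors' deposited table.

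Genes that control the stability of Snail, Zeb and Twist proteins had 6 of 20 tested members lower and 3 higher per the authors' deposited table. Among all genes with a mean of at least 100, which all 20 had, 30.2% were lower and 24.4% higher. The share of lower genes was near this background. Pak1, a kinase that phosphorylates Snail, rose by 1.45 on the log2 scale (SE 0.12) per the authors' deposited table. Gsk3b, the kinase that marks Snail for degradation, fell (log2 fold change -1.04, SE 0.14), and so did the ubiquitin ligase gene Fbxl14 (-0.89, SE 0.12, neighbours -0.74 on chromosome 6) and the Hippo kinase gene Lats2 (-0.63, SE 0.12) per the authors' deposited table. Protein levels were not measured.

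Genes of the signals that induce the transition were lower for 14 and higher for 5 of 24 tested per the authors' deposited table (median -0.86). Among all genes with a mean of at least 100, which all 24 had, 30.2% were lower and 24.4% higher. The list also holds inhibitors of TGF-beta signalling, singled out after their values were seen. Smurf2 is among the lower genes (log2 fold change -0.64), Skil among the higher (0.85), and Ski and Smad7 did not pass per the authors' deposited table. The ligand genes Tgfb2 and Wnt5a fell with log2 fold changes of -2.51 (SE 0.15) and -3.15 (SE 0.22), and the receptor genes Egfr and Fgfr1 with -2.21 (SE 0.13) and -2.05 (SE 0.12) per the authors' deposited table. Within the TGF-beta branch, named after its values were seen, Tgfb1, Tgfb3, Tgfbr1 and Smad3 fell (log2 fold changes -2.13, -1.32, -1.28 and -1.97), Tgfbr2 and Smad2 rose (1.71 and 0.68), and Smad4 and Smad7 did not pass (0.31 and 0.34) per the authors' deposited table.

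Around vimentin, 5 of 10 tested intermediate filament and linker genes were lower and 1 was higher per the authors' deposited table (median -0.54), against 25.1% lower and 25.4% higher over all genes. Nes, which encodes the filament protein nestin that assembles with vimentin, fell by 1.47 on the log2 scale (SE 0.19) per the authors' deposited table. Further falls were those of the muscle filament gene Des (log2 fold change -0.52, SE 0.13), the lamin gene Lmnb2 (-0.77, SE 0.15) and, at a low mean of 26.4, the keratin gene Krt14 (-1.73, SE 0.53) per the authors' deposited table. The linker gene Plec and the lamin gene Lmna, named after their values were seen, did not pass at 0.30 and -0.04 on the log2 scale per the authors' deposited table.

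Around fibronectin, 18 of 28 tested genes for its receptors, assembly and matrix partners were lower and 8 were higher per the authors' deposited table (median -0.64). Over all genes tested 25.1% were lower and 25.4% higher, so the share of higher genes was near the background. Both subunits of its main receptor, singled out after their values were seen, fell by less than Fn1 itself: Itga5 had a log2 fold change of -0.72 (SE 0.16) and Itgb1 of -0.65 (SE 0.12) per the authors' deposited table. Those with the smallest adjusted p were Itga4, a receptor subunit for another site of fibronectin (-3.94, SE 0.18), the adhesion linker gene Tns1 (-3.27, SE 0.19), Itgb3 (-3.07, SE 0.19) and the syndecan gene Sdc1 (-2.82, SE 0.19, neighbours -0.73) per the authors' deposited table.

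Mesenchymal effector genes had 17 of 31 tested members lower and 7 higher per the authors' deposited table (median -1.20). The background was 25.1% lower and 25.4% higher, and the share of higher genes was near it. Tagln and Acta2, which encode smooth muscle proteins of the contractile cytoskeleton, fell with log2 fold changes of -7.07 (SE 0.23) and -3.96 (SE 0.22), and the matrix enzyme gene Loxl2 with -3.06 (SE 0.17) per the authors' deposited table. Spp1, which encodes osteopontin, rose by 4.10 (SE 0.14) per the authors' deposited table. The cadherins divided: Cdh11 had a log2 fold change of -7.52 (SE 0.49), whereas Cdh2, the N-cadherin gene to which cells switch in the transition, did not pass at -0.11 (interval -0.31 to 0.08, DESeq2 adjusted p = 0.363) per the authors' deposited table. Cd44 did not pass either (-0.06), and S100a4 rose by 1.78 and Lgals1 by 0.68 per the authors' deposited table. The genes of the last 2 sentences were named after their values were seen.

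**Figure D4:**
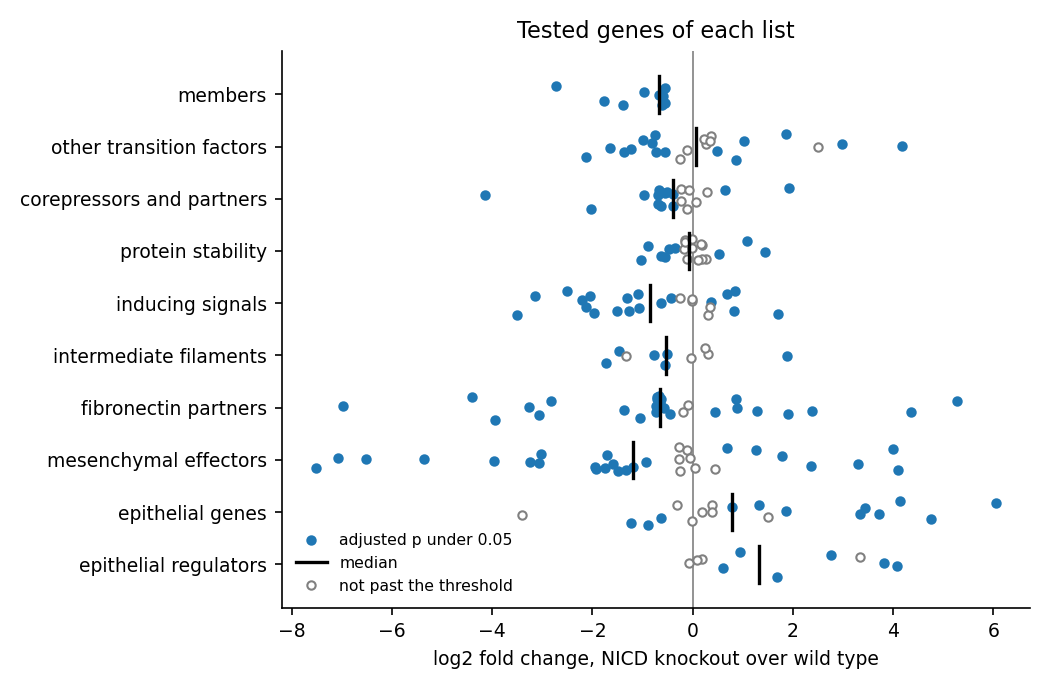
Log2 fold change, knockout over WT, of each tested gene in the members and in 9 lists around them (filled, adjusted p under 0.05; open, not past it; black bars, medians). The members lie on 1 side of 0 (median -0.66) and the mesenchymal effectors spread on both sides (median -1.20). The 10 tested epithelial regulators have a median of 1.31, which is no support for a direction because 5 have means below 100. Over the 5 whose mean reached 100 it is 0.95.

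Genes that Snail and Zeb proteins repress in epithelia were tested in part: 19 of 37 listed, while Cdh1 and Epcam were not analysed here. Of the 19, 9 were higher and 3 lower per the authors' deposited table, against 25.4% of all genes tested that were higher, with a median of 0.78. Of these 19, 11 had a mean below 100, and among the 8 above it 2 were higher and 3 lower (median -0.06). F11r, a junctional adhesion molecule gene, had a fitted level of 2216 in the knockout and 881 in WT (log2 fold change 1.33, SE 0.17, per the authors' deposited table). Llgl2, a polarity gene, had 673 in the knockout and 184 in WT (1.87, SE 0.24, from the same table). The desmosome gene Pkp3 had 114 in the knockout and 6.47 in WT (4.14, SE 0.53, from the same table). The tight junction gene Tjp1 fell with a log2 fold change of -0.89 (SE 0.15) per the authors' deposited table. The filter on low counts is not known, and a low gene may stand in the table only through the group where it is high, so the count among low genes is no support for a direction of the list.

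Of the factors known to oppose the transition, 10 were tested and 8 were not, among them Ovol1, Ovol2, Esrp1 and Esrp2. Of the 5 with a mean of at least 100, 4 were higher and none lower per the authors' deposited table by DESeq2 (median 0.95), against 24.4% higher among all genes of that mean. The other 5 had lower means and may stand in the table only through the group where they are high, so the count over all 10 (6 higher, median 1.31) is no support for a direction. Klf4, a factor of epithelial differentiation that is also used to reprogram cells, had a fitted level of 573 in the knockout and 34.1 in WT (log2 fold change 4.07, SE 0.29, DESeq2 adjusted p = 1.39e-43 per the authors' deposited table). Klf5 rose by 0.95 (SE 0.23) and the epidermal factor gene Trp63, at a mean of 19.9, by 3.83 (SE 0.89) per the authors' deposited table.

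The planned mesenchymal markers outside the members were Pdgfra and Col1a1, both also among the mesenchymal effectors and named here after their values were seen. Pdgfra rose with a log2 fold change of 2.36 (SE 0.33) and Col1a1 fell with -1.94 (SE 0.26) per the authors' deposited table. The labelled cell type was also checked against markers of other cells. Of 10 markers of epithelia, 4 were tested, with summed fitted levels of 104.6 in the knockout and 47.1 in WT: Krt8, Cldn4 and Krt19 rose and Krt14 fell per the authors' deposited table. Krt8 had a fitted level of 54.4 in the knockout and 5.38 in WT. Krt19 had a fitted level of 25.2 in the knockout and 0.930 in WT, and Cldn4 12.9 in the knockout and 0.195 in WT; WT levels under 1 normalised count per library give no reliable fold. These 4 genes stand in other lists above as well. All 4 had means below 100 and may stand in the table only through the group where they are high. Their sums and the count of those that rose are therefore no support for a direction. Of 10 endothelial markers, 7 were tested, with summed levels of 195.3 in the knockout and 274.8 in WT; Kdr and Egfl7 fell (log2 fold changes -1.91 and -0.65), and Pecam1 and Tie1 did not pass at 1.18 and -0.98 per the authors' deposited table. Of 10 leukocyte markers, 5 were tested, with summed levels of 2442 in the knockout and 381 in WT. Means were below 100 for 3 of these 5 and for 6 of the 7 endothelial markers, with the same limit. Most of the leukocyte sum was Cd68, a lysosomal protein gene not confined to macrophages, which rose with a log2 fold change of 3.64 (SE 0.18) per the authors' deposited table. Lyz2 rose by 0.83, and Ptprc, which marks all leukocytes, had a mean of 8.73 and did not pass (log2 fold change 1.88, DESeq2 adjusted p = 0.302) per the authors' deposited table. The part of such cells in the falls of the members was not tested, and in whole cultures fewer cells of a type and less RNA per cell cannot be told apart.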

How the data were processed

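Total RNA of 6 libraries was sequenced (3 NICD Knockout, 3 WT), grouped by the genotype label. Salmon, DESeq2 and the build mm39 are named in the submitters' processing notes, with no versions or settings. Each gene has 1 row, with (per the file headers) a mean normalised count by the authors (a signal: counts divided by size factors), a log2 fold change with its SE, a Wald statistic (a score) and a p-value with its adjusted form. Recomputing the score and both p-values from the deposited columns differed by at most 1.56e-13. The table holds no columns of single libraries, so the planned edgeR test for counts was not run, and calls are the authors' at an adjusted p under 0.05 over 14470 genes; 2 rows had no p-value. Direction, knockout over wild type, comes from the name of the authors' table.

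Intervals are the estimate plus or minus 1.96 SE. Group levels assume 3 libraries per group. The 2-fold test took the null of a change of at most 2-fold either way. Neighbours came from GENCODE M21 (GRCm38), matched by gene identifier, limited to coding genes whose mean reached 100, and only its gene order was used. The rules for calls were tested on log2 fold changes simulated with the deposited SEs. The members and the 12 gene lists were chosen with earlier results of these data known. Genes named are the members and the 4 tested genes with the smallest adjusted p in each list; others are said to be named after their values were seen, and some listed genes are not reported here by name. Alternatives were a threshold of 0.01, Bonferroni adjustment, minimum means of 10 and 100, centring, neighbour subtraction and the 2-fold null. Python 3.11.15, numpy 2.4.6, pandas 2.3.3, scipy 1.17.1 and matplotlib 3.10.9 were used.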

Additional observations from a re-analysis of the deposited data

How the results depend on the processing

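Of the 7 alternatives run, only centring and neighbour subtraction change the fold changes themselves, and all 9 members stayed below 0 under both. The count of 9 stayed at an adjusted p under 0.01, with minimum means of 10 and 100, and after centring on genes with a mean of at least 100, which moved each log2 fold change by 0.05. Bonferroni adjustment left 4 members (Snai2, Zeb2, Fn1 and Twist1) and the null of a change of at most 2-fold left 2 (Snai2 and Zeb2), which follows from the stricter tests themselves. Subtracting neighbours left 8, without Vim, whose value became -0.30. With 5 in place of 10 neighbours on each side, chosen after seeing the data, all 9 again lay below their neighbour median. The neighbour median of Twist2 was then -0.38, inside the interval of Twist2 (-0.87 to -0.34 on the log2 scale). That of Vim was -0.39, inside the interval of Vim (-0.91 to -0.21). No adjusted p was computed with 5 neighbours, so the passing of Twist2 after subtraction holds for 10 neighbours only. A minimum mean of 100 removes low genes. Counts higher were then 2 of 8 for the epithelial genes and 4 of 26 for the mesenchymal effectors. They were 5 of 24 for the fibronectin partners and 0 of 7 for the intermediate filaments. Counts lower were 1 of 1 for the endothelial and 0 of 2 for the leukocyte markers, and no epithelial marker reached this mean. Among all genes of that mean, before adjusting again, 24.4% were higher and 30.2% lower, so the share of higher effectors was below the background there. At 0.01, 1 of 19 tested genes of the list of corepressors, partners and inhibitors and 1 of 5 leukocyte markers were higher. At the same threshold 1 of 7 endothelial markers was lower. After centring, 5 of 20 protein stability genes were higher and 1 of 7 endothelial markers was lower. The cause was not tested. The share of all genes passing at 0.01 or after centring is not reported here. No paired analysis was possible because the table holds no values of single libraries, and leaving out a library could not be done for the same reason. Precision is limited by the 3 libraries per group, and for the epithelial genes by means that are mostly below 100.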
